A study of Homo sapiens with 6 samples.

Results

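The 39 HOX genes were examined, out of 27469 genes with values in the deposited count table. They were taken as every row whose symbol is HOX, a cluster letter from A to D and a paralog number. The cells were HMC3, labelled as microglia, a line made from human embryonic cells with a viral oncogene. There were 3 Control libraries and 3 from cells treated with interleukin-33 (IL-33), a cytokine of the IL-1 family, for 24 h. All 6 libraries came from this cell line, and the labels give neither the dose of IL-33 nor what the Control cells received. The QuantSeq 3' FWD kit reads a short tag near the polyadenylated end of each transcript, so levels of different genes were compared in CPM (counts scaled to library size, after TMM normalisation) without division by length.

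HOX proteins are homeodomain transcription factors that tell cells of the embryo where they lie along the head-to-tail axis. Their genes stand in 4 clusters, HOXA, HOXB, HOXC and HOXD, and within a cluster the paralogs of low number act in anterior and those of high number in posterior parts of the body. Many adult mesenchymal cells keep the HOX pattern of the body region they come from, whereas the forebrain and midbrain form outside the HOX domain.

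Depth was 5739947 to 10217529 counts per library, and 3 counts corresponded to between 0.293 and 0.542 CPM in a library. Control 3, the shallowest library, separated from the rest on the first principal component, at 55.0 against -18.0 to 0.86 for the other 5. Of 16 microglia and macrophage markers 9 had 0 counts in all libraries, among them ITGAM, CX3CR1, P2RY12, TMEM119, SPI1 and TYROBP, and the summed level of the list ran from 25.3 to 46.1 CPM in the Control libraries and from 32.6 to 37.2 CPM after IL-33. The 12 fibroblast and mesenchymal markers summed to between 2124 and 2812 CPM in the Control libraries and between 2395 and 2804 CPM after IL-33, led by VIM and COL1A1, with COL3A1 and LUM at 0. Separate cultures are not stated in the labels, so p-values reflect only the variation among these 6 libraries, which may be technical. In bulk RNA, fewer cells that express a gene and less of its RNA per cell cannot be told apart.

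HMC3 transcribed the HOXB cluster and a pair of HOXC genes, and the HOXA and HOXD clusters lay at or near 0. Of the 39 HOX genes, 17 had 0 counts in all 6 libraries, 13 had between 4 and 24 counts in all, and 9 reached a mean of 1 CPM. These 9 genes were HOXB2, HOXB3, HOXB4, HOXB5, HOXB6, HOXB7, HOXB9, HOXC6 and HOXC8. They held 95.1% of the 3393 HOX counts and were also the 9 that passed the filter for the test.

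**Figure D1:**
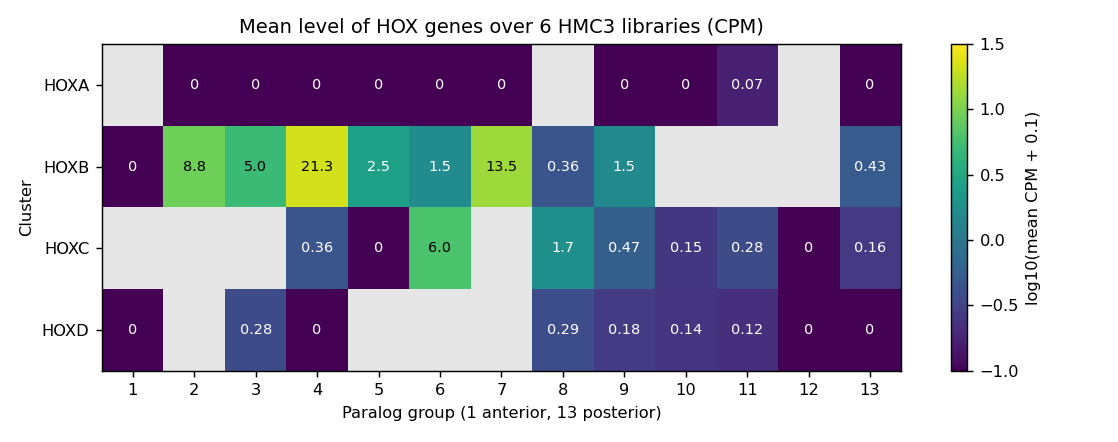
Mean level of HOX genes over the 6 libraries, with clusters as rows and paralog groups 1 to 13 as columns. Colour gives log10(mean CPM + 0.1), the printed number is the mean in CPM, and grey marks a group of which the cluster has no gene or whose gene is not shown. The highest levels are those of HOXB4, HOXB7, HOXB2, HOXC6 and HOXB3, while the HOXA genes shown are at 0 except HOXA11.

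The clusters differed most between HOXA and HOXB. HOXA, on chromosome 7, held 4 counts over the 6 libraries, all of HOXA11 in Control 1. For a gene at 0 in all libraries, the pooled depth allows up to 0.0576 CPM. HOXB, on chromosome 17 from 48528526 to 48729178 (GRCh38), summed to 53.4, 53.9 and 49.7 CPM in the Control libraries and to 53.4, 57.9 and 60.8 CPM after IL-33. HOXC, on chromosome 12 from 53938765 to 54056030, summed to 4.96, 9.24 and 13.9 CPM in the Control libraries and 10.6, 11.3 and 4.94 CPM after IL-33. HOXD, on chromosome 2 from 176092891 to 176190907, held 51 counts over the 6 libraries, spread over 5 of its 9 genes. HOXB was above HOXC in 6 of 6 libraries, with a ratio of summed counts between 3.57 and 12.3.

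HOXB took 90.9%, 85.2% and 76.0% of the HOX counts in the Control libraries and 81.6%, 81.3% and 91.5% in the IL-33 libraries. The ranges of the groups overlap, and the lowest share was that of Control 3. Over all libraries the share was 84.8%, with a 95% exact binomial interval from 83.5% to 86.0% that covers counting error only. HOXC took 13.6% and HOXD 1.503%.

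By position along the axis, paralog groups 4 to 8, which act at cervical and thoracic levels, held 73.1% of the HOX counts. Groups 1 to 3, which act in the hindbrain and the upper neck, held 21.8%, and groups 9 to 13 held 5.10%. At the anterior end, HOXB1 and HOXD1 each had 0 counts. Group 12 was also at 0, in HOXC12 and HOXD12.

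Within most groups that held a tested gene, the HOXB copy had the most counts. HOXB2 had 463 counts against 0 for HOXA2, HOXB3 265 against 13 for HOXD3 and 0 for HOXA3, and HOXB5 125 against 0 for HOXA5 and HOXC5. In group 4, HOXB4 had 1126 counts, HOXC4 15, and HOXA4 and HOXD4 0. In group 7, HOXB7 had 702 counts and HOXA7 0. Group 6 went the other way: HOXC6 had 298 counts, HOXB6 78 and HOXA6 0, and HOXC6 exceeded HOXB6 in 6 of 6 libraries, with a ratio of counts between 1.16 and 8.43. In group 8 the HOXC copy also had the most counts, with 97 for HOXC8, 21 for HOXB8 and 17 for HOXD8. In Control 1, however, HOXB8 had 10 counts and HOXC8 3. In group 9, HOXB9 had 72, HOXC9 22, HOXD9 6 and HOXA9 0.

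The homeoboxes of HOXC6 and HOXB6 are shown to compare the DNA-binding domains of paralogs whose levels differed in the same direction in 6 of 6 libraries. Each sequence is the coding stretch of 180 bases for the homeodomain, 5′ to 3′ on the coding strand, from GENCODE release 29 transcripts on GRCh38. Capitals mark the bases of HOXB6 that differ from HOXC6.
HOXC6: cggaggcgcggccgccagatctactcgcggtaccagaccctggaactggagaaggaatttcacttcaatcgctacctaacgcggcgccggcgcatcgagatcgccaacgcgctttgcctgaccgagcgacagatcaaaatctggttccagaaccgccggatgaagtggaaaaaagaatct
HOXB6: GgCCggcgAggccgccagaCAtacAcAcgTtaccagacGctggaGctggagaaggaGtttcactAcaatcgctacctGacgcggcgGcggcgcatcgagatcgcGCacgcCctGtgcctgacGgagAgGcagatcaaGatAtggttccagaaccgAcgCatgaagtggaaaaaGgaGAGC
The homeobox of HOXC6 lies at chr12:54029675-54029854 (plus strand) and that of HOXB6 at chr17:48596473-48596652 (minus strand), each within 1 coding exon. They differ at 31 of 180 bases (82.8% identical).

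Reads shared between paralogs could be lost or split by the counting. Among annotated transcripts, the longest run of identical bases that a tested gene shares with a HOX gene of another cluster is 62 bases, between HOXB3 and HOXD3. It is 40 bases for HOXB4 (with HOXD3), 26 for HOXB7 (with HOXA5) and 23 for HOXC6 (with HOXA6). Overlap of neighbouring genes also bears on the levels. The last 500 bases of HOXB4 transcripts overlap exons of HOXB3 on the same strand, those of HOXC6 overlap HOXC9 on the same strand and HOXC-AS2 on the opposite strand, and those of HOXB2 overlap HOXB-AS1 on the opposite strand. HOXB3 overlaps HOXB6 on the same strand and HOXB-AS1 and HOXB-AS3 on the opposite strand, and HOXB6 overlaps HOXB-AS3. Without a stated counting rule and strand setting, reads in these overlaps cannot be assigned to a gene, so the levels of HOXB2, HOXB3, HOXB4, HOXB6 and HOXC6 carry that uncertainty. HOXB5, HOXB7, HOXB9 and HOXC8 had no such overlap.

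HOXB4, known for promoting the self-renewal of blood stem cells, was the most abundant HOX transcript. It measured 19.0, 16.4 and 19.2 CPM in the Control libraries and 24.2, 25.7 and 23.5 CPM after IL-33. Its mean of 21.3 CPM placed it at the 48.0th percentile of the 12125 genes tested. HOXB7, also studied as a growth-promoting factor in tumours, measured 11.9, 16.9 and 12.5 CPM in the Control libraries and 14.6, 12.5 and 12.6 CPM after IL-33. Both were detected in every library with little spread, with a coefficient of variation of 17.0% and 14.2% over the 6 libraries. The 2 genes did not separate in level: HOXB4 exceeded HOXB7 in 5 of 6 libraries, and their ranges overlap.

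HOXB2, which patterns the hindbrain, measured 11.2, 10.9 and 6.69 CPM in the Control libraries and 5.85, 8.78 and 9.06 CPM after IL-33. It lay below HOXB7 in 6 of 6 libraries, with ranges that do not overlap. HOXC6, a thoracic paralog, followed with 3.87, 6.12 and 10.7 CPM in the Control libraries and 6.07, 6.14 and 3.41 CPM after IL-33, and Control 3 was its highest library. HOXB3, which acts in the hindbrain and neck, measured 5.65, 3.72 and 3.98 CPM in the Control libraries and 4.26, 5.75 and 6.59 CPM after IL-33. The neighbours HOXB2 and HOXC6, and HOXC6 and HOXB3, each changed order between libraries.

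The other tested members were close to the detection limit. HOXB5, a factor of the enteric neural crest, measured between 1.28 and 4.34 CPM over the 6 libraries, HOXB6 between 0.595 and 2.94 CPM and HOXB9 between 0.397 and 2.59 CPM. HOXC8, a thoracic gene, was the most variable, with 0.297, 2.40 and 0 CPM in the Control libraries and 2.55, 4.39 and 0.588 CPM after IL-33, a coefficient of variation of 100.02%. From HOXB5 downwards, the ranges of neighbours in this order overlap. HOXB5 exceeded HOXB6 in 6 of 6 libraries. Relative to Control 1 and 2 on average, Control 3 differed by 1.08 (log2 of CPM + 0.1) in HOXC6, 1.09 in HOXB9, -0.72 in HOXB2 and 0.11 in HOXB4, and HOXC8 had 0 counts in it. The part of its depth in these values was not tested.

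**Figure D2:**
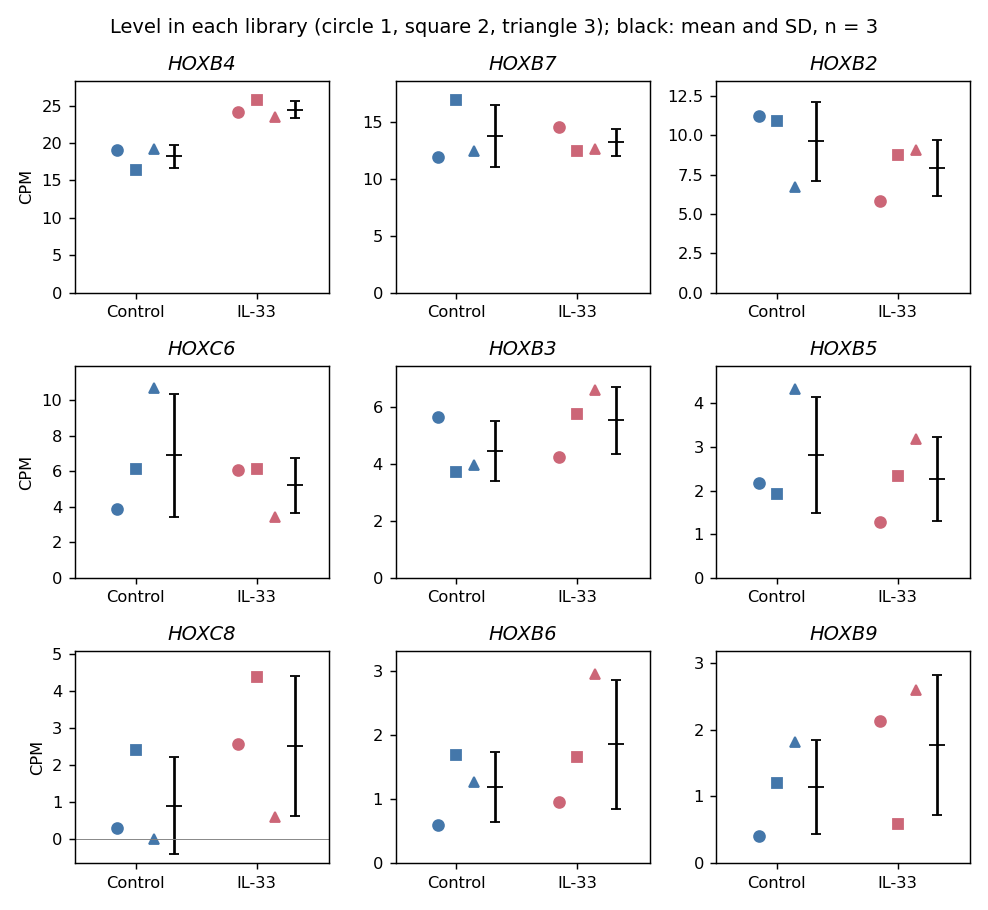
Level of the 9 tested HOX genes in CPM in each Control (blue) and IL-33 (red) library, ordered by mean level. Circles, squares and triangles are replicates 1, 2 and 3, and the black mark is the mean with its SD (n = 3). In HOXB4 the 3 IL-33 libraries (23.5 to 25.7 CPM) lie above the 3 Control libraries (16.4 to 19.2 CPM), and in the other 8 genes the groups overlap.

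Low counts of the remaining members were unevenly spread. HOXB13, the most posterior gene of its cluster, had 15 counts in Control 1, 9 in Control 2 and 0 in the other 4 libraries. HOXC13 had 9 counts in IL-33 1 alone, HOXD9 6 in Control 3 alone, and HOXD8 12 in IL-33 2 and 5 in IL-33 3 alone. Among the 13 untested members with counts, 3 (23.1%) had all of them in 1 library. The share was 20.1% among the 2932 genes of the table with 4 to 30 counts in all. The median chi-square per degree of freedom of the counts between libraries was 4.92 in these HOX genes and 3.77 in all genes of that range, where counting error alone would give about 1. The remaining untested members with counts were HOXA11, HOXB8, HOXC4, HOXC9, HOXC10, HOXC11, HOXD3, HOXD10 and HOXD11, each with at most 22 counts.

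The comparison of IL-33 with Control asked whether 24 h of the cytokine moved these levels. None of the 9 tested HOX genes passed the quasi-likelihood test of edgeR (0 at a Benjamini-Hochberg adjusted p of 0.05, each with an adjusted p of 0.999), as for all 12125 genes (0.0% called). DESeq2 and limma-voom also called 0 HOX genes. At an unadjusted p under 0.05 there was 1 HOX gene, HOXB4, against 2.43% of all genes tested. Of the 9, 5 had a log2 fold change above 0, against 48.9% of all genes. The median log2 fold change was 0.30, against -0.01 over all genes tested, and it is given as a description, since HOXC8 passed the filter through 1 Control and 2 IL-33 libraries.

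HOXB4 was the sole member whose groups did not overlap, as in 8.06% of all genes tested and, where IL-33 lay above Control, in 4.54%. With IL-33 below Control there were 0 members, against 3.52% of all genes. The mean of HOXB4 was 18.2 ± 1.53 CPM in the Control libraries and 24.5 ± 1.14 CPM after IL-33 (SD, n = 3 each). The log2 fold change was 0.43 ± 0.19 (SE), with a 95% interval from 0.02 to 0.83, an unadjusted p of 0.0399 and, after Benjamini-Hochberg adjustment in edgeR, 0.999. With a library left out in turn the log2 fold change ran from 0.36 to 0.46, and the unadjusted p from edgeR from 0.0336 (without Control 3) to 0.119 (without Control 2), above 0.05 in each case except without Control 3.

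For the other abundant members the test bounded the difference. HOXB7 had a log2 fold change of -0.06 with a 95% interval from -0.57 to 0.46, and HOXB2 of -0.30 with an interval from -0.95 to 0.36. The intervals of HOXB4, HOXB7 and HOXB2 lay within -1 to 1, 3 of 9 members, against 73.4% of all genes tested. HOXC6 had -0.37 ± 0.41 (SE) and HOXB3 0.30 ± 0.39. HOXC8 had the largest estimate of the 9, 1.42 ± 0.96, with an interval from -0.61 to 3.46, which covers both a lower and a higher level. The intervals of HOXB5 (-0.29 ± 0.60), HOXB6 (0.66 ± 0.74) and HOXB9 (0.68 ± 0.80) likewise covered both directions. The direction of HOXB7, HOXB5 and HOXC6 depended on a Control library, turning to 0.12 without Control 2 in HOXB7 and to 0.14 and 0.07 without Control 3 in HOXB5 and HOXC6.

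**Figure D3:**
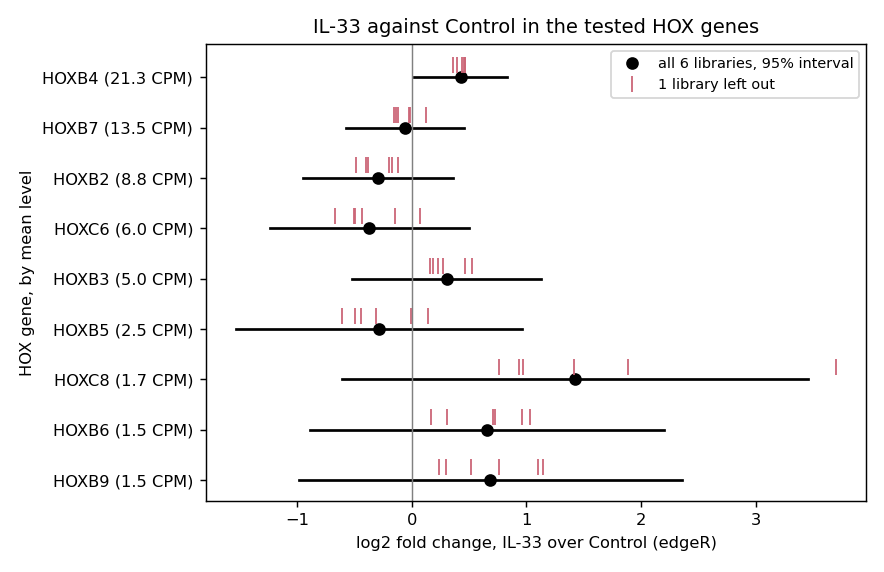
Log2 fold change of IL-33 over Control for the 9 tested HOX genes, ordered by mean level. Black points and lines are the estimate and its 95% interval from edgeR with all 6 libraries, and red ticks are the estimates with 1 library left out. The rightmost tick of HOXC8 is without Control 2, a fit it entered through IL-33 libraries alone. The interval of HOXB4 runs from 0.02 to 0.83 and those of the other 8 genes include 0.

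Summed over each cluster, HOXB measured 52.3 ± 2.30 CPM in the Control libraries and 57.4 ± 3.74 CPM after IL-33, and HOXC 9.37 ± 4.48 and 8.96 ± 3.50 CPM (SD, n = 3 each). The group ranges overlap in both clusters. HOXB13 had 24 counts in Control and 0 after IL-33, where 3 counts correspond to between 0.293 and 0.353 CPM in an IL-33 library, but Control 3 was at 0 as well. HOXD8 had 0 counts in Control and 17 after IL-33, where IL-33 1 was at 0. No fold is given for either gene.

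The noncoding RNAs of the clusters were mostly not detected. Their list also holds the genes PRAC1, PRAC2, EVX1 and EVX2 in and beside the clusters. Of 21 listed genes found in the table, 14 were at 0. HOXB-AS1, which lies opposite HOXB2 and HOXB3, measured 3.67, 1.68 and 6.69 CPM in the Control libraries and 5.21, 2.73 and 5.53 CPM after IL-33 (log2 fold change 0.19 ± 0.51). It was the sole member above 1 CPM and the sole member tested. PRAC2, between HOXB9 and HOXB13, had 44 counts in all, HAGLR of the HOXD cluster 13 in IL-33 2 alone, and HOXB-AS3 5 in Control 3 alone. In the HOXA cluster HOTAIRM1, HOXA-AS2, HOXA-AS3, HOXA10-AS and HOTTIP had 0 counts and HOXA11-AS 1. HOTAIR, which lies in HOXC, had 1 count.

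Genes around the clusters were transcribed on both sides of HOXA and HOXD. Within 500 kb of HOXA, 3 other protein-coding genes were found in the table: SKAP2 beyond the anterior end at 3.28 CPM, HIBADH beyond the posterior end at 3.21 CPM, and the homeobox gene EVX1, next to HOXA13, at 0. Next to HOXD, LNPK lay at 80.9 CPM and MTX2 at 13.7 CPM, and EVX2 at 0. Around HOXB, 10 of 18 neighbours were at 1 CPM or more, up to 326 CPM for CBX1, but the nearest outside the cluster were low: TTLL6, 33.1 kb beyond HOXB13, had 34 counts, and SKAP1, 98.3 kb beyond HOXB1, had 7. Around HOXC, 13 of 19 neighbours were at 1 CPM or more, with SMUG1 at 13.5 CPM and CALCOCO1 at 14.2 CPM nearest on either side of the cluster. The neighbours were picked by position and named after their values were seen.

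**Figure D4:**
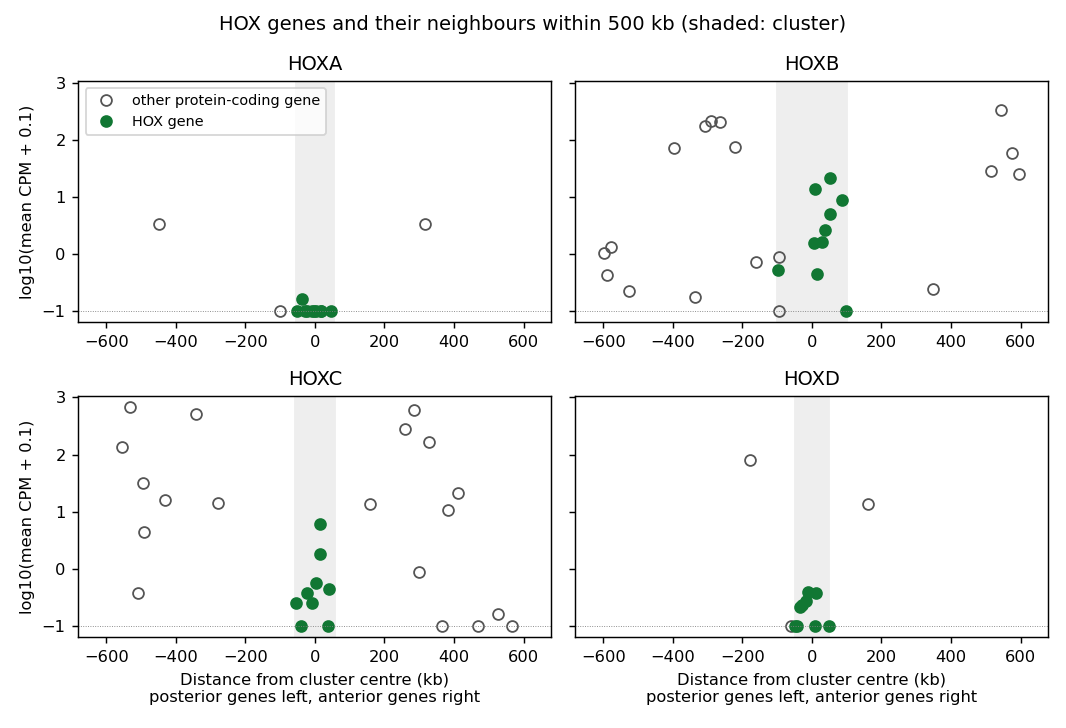
Mean level over the 6 libraries, as log10(CPM + 0.1), of HOX genes (green) and other protein-coding genes within 500 kb (open circles), against the distance of the gene's midpoint from the cluster centre in kb. Posterior genes are to the left, the shaded band is the cluster, and the dotted line is a level of 0. The HOXA genes shown lie on the dotted line except HOXA11, between neighbours at 3.21 and 3.28 CPM.

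HOX proteins bind DNA together with cofactors of the TALE homeodomain class, PBX and MEIS. The list used here also holds other TALE genes, among them TGIF2. Its 4 most abundant members exceeded HOXB4 in mean level, as did some of the others. Of 11 listed members 9 were at 1 CPM or more, and all 9 were tested. PBX3 measured 108 ± 7.50 CPM, TGIF2 47.7 ± 4.73 CPM, PBX2 42.0 ± 7.65 CPM and MEIS3 39.6 ± 4.05 CPM over the 6 libraries (SD, n = 6). After IL-33, 0 of the 9 passed an adjusted p of 0.05 in edgeR, as for all 12125 genes (0.0% called). Of the 9, 4 had a log2 fold change above 0, and the median was -0.03. PBX3 had 0.02 with an interval from -0.22 to 0.26.

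Opposed groups of chromatin regulators set HOX transcription in development, Polycomb repressive complex 2, which keeps clusters silent, and the Trithorax and COMPASS proteins, which keep them active. Nearly all genes listed for both were transcribed in HMC3. Of 13 listed Polycomb genes 12 were tested, led by SUZ12 (263 ± 18.5 CPM), RBBP7 (219 ± 27.5 CPM), PHF19 (141 ± 5.49 CPM) and the methyltransferase gene EZH2 (121 ± 9.96 CPM). After IL-33, 0 of the 12 passed the adjusted threshold, as for all genes tested (0.0% called). The median log2 fold change was -0.08, and all 12 intervals lay within -1 to 1. In EZH2 (0.18 ± 0.11) and SUZ12 (-0.16 ± 0.09), 2 of the 12, the groups did not overlap, against 8.06% of all genes tested, and neither passed. The COMPASS and Trithorax list used here also holds other genes, among them PSIP1 and AFF4. Of its 20 genes 20 were tested. PSIP1 measured 624 ± 30.3 CPM, KMT2A 386 ± 9.30 CPM, AFF4 111 ± 12.4 CPM and KMT2C 105 ± 4.98 CPM. Of the 20, 0 passed the adjusted threshold (median log2 fold change 0.04). KMT2A (0.05 ± 0.09, IL-33 above) was the 1 of these 20 whose groups did not overlap. CTCF and cohesin shape the boundaries of the clusters. Their 9 listed genes held RAD21 at 422, SMC3 at 394, SMC1A at 391 and NIPBL at 208 CPM. Of the 9, 0 passed the adjusted threshold (median log2 fold change -0.06). RAD21 (-0.10 ± 0.09, IL-33 below) was the 1 of these 9 whose groups did not overlap.

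Retinoic acid and CDX factors activate HOX clusters in the embryo. Of 22 listed genes 8 were tested, and the median log2 fold change was 0.05. Of the 8, 0 passed the adjusted threshold, as for all genes tested (0.0% called). The receptor genes RXRB, RARG and RXRA measured 83.8, 24.8 and 22.8 CPM. GDF11, also on the list, lay at 36.0 CPM. CDX1 had 8 counts in all and CDX2 and CDX4 0, while ALDH1A2, which makes retinoic acid, lay at 1.62 CPM.

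Positional factors outside the HOX clusters included genes of the forebrain, where HOX genes are normally silent. Of 18 forebrain and midbrain homeobox genes, 6 were at 1 CPM or more. PAX6, of the eye and forebrain, measured 51.7, 42.3 and 40.8 CPM in the Control libraries and 56.7, 50.5 and 43.7 CPM after IL-33. NKX2-1, of the ventral forebrain, thyroid and lung, measured 31.8, 38.1 and 28.7 CPM in the Control libraries and 33.7, 51.3 and 44.0 CPM after IL-33. In every library both lay above the HOXB4 value of that library. GBX2 measured 7.42 CPM, DLX1 6.81 CPM and OTX1 6.02 CPM, while OTX2, EMX2, EN1 and EN2 had 0 counts. Of 20 limb and trunk factors 9 were at 1 CPM or more, among them the mesenchymal factor TWIST1 (33.8 ± 2.62 CPM), SHOX2 (14.2 ± 2.90 CPM) and MSX1 (6.47 CPM). The limb field genes TBX5 and TBX4 had 4 and 14 counts in all, whereas PITX1, on the same list, had 295 (5.73 CPM). After IL-33, 0 of the 6 tested forebrain and midbrain genes and 0 of the 10 tested limb and trunk genes passed the adjusted threshold. The same held for all genes tested (0.0% called). The median log2 fold changes were 0.00 and -0.03.

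**Figure D5:**
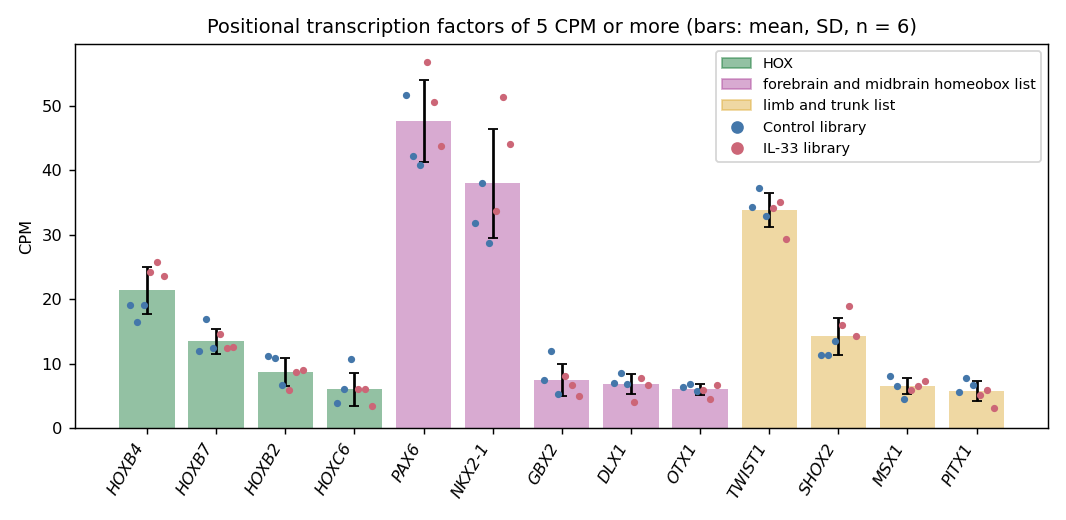
Level in CPM of HOX genes and of members of the forebrain and midbrain and the limb and trunk lists with a mean of 5 CPM or more, where reported. Bars are means over the 6 libraries with their SD, and points are the Control (blue) and IL-33 (red) libraries. PAX6 at 47.6 CPM and NKX2-1 at 37.9 CPM stand above HOXB4 at 21.3 CPM.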

How the data were processed

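RNA of 6 HMC3 libraries was measured by 3' sequencing (QuantSeq 3' FWD, TRIZOL extraction, per the labels' protocols). The authors deposited whole-number read counts per gene symbol, unnormalized. Per the submitters' processing notes, STAR 2.7.5a, HTSeq 0.6.1, edgeR and hg38 are listed, without their roles. For annotation, strand setting and filters nothing is stated in the labels. Of 27470 table rows, 1 without values was left out.

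IL-33 was compared with Control by edgeR 4.0.16 (R 4.3.3): filterByExpr (count minimum 10, total minimum 15), TMM, robust quasi-likelihood test on group alone, Benjamini-Hochberg adjustment at 0.05 over 12125 genes. Intervals are 95%. CPM used TMM-scaled library sizes. Library totals of 5739947 to 10217529 counts set the floor of 3 counts. DESeq2 1.42.0, limma-voom (limma 3.58.1), other scalings, filters and thresholds, the replicate number as a block and each library left out were alternatives. The procedure was tested on simulated data. Replicate pairs differed beyond counting noise (chi-square per degree of freedom 5.63 to 16.8), so none were merged. Positions and transcripts came from GENCODE 29 (GRCh38), matched by symbol. Figures used matplotlib 3.10.9.

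The members and the gene lists were chosen with earlier results of these data known. Of 242 distinct listed genes, 237 matched by their own symbol, 1 by an earlier symbol and 4 had no match. Every tested HOX gene was named, as were members of other lists past the threshold (there were 0) and up to 4 of highest level from each. OTX1 and PITX1 were named besides these, after their values were seen. A few genes and sequences are not reported here. Besides microglia and fibroblast markers, other marker lists served as checks: pericyte and smooth muscle (4 of 8 genes at 1 CPM or more), neuron (2 of 7), astrocyte (1 of 6), oligodendrocyte (1 of 6), endothelial (0 of 6) and epithelial (2 of 5, mostly KRT18).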

Additional observations from a re-analysis of the deposited data

How the results depend on the processing

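The count of 9 HOX genes at 1 CPM or more was 9 at 0.5 CPM, with library size alone and without any library, and 4 at 5 CPM. The HOXB share of HOX counts, 84.4% as a mean of libraries, was 83.4% as a median and 83.0% to 86.1% with a library left out. HOX genes called were 0 under every setting run. The count over all genes, 0, was 3 without the low-count filter, 1 with DESeq2 and 0 to 6 with a library left out, the 6 being without Control 3. Reversed directions were those of HOXB7 (-0.16 to 0.12 with a library left out), HOXB5 (-0.61 to 0.14) and HOXC6 (-0.67 to 0.070). HOXC8 ran from 0.76 without IL-33 2 to 1.88 without IL-33 3 among the fits that kept Control 2. Without Control 2 it passed the filter through IL-33 libraries alone, so no fold is given for that fit. The labels do not say that replicate numbers pair the libraries. Same-numbered deviations from the group means correlated at -0.086, 0.027 and -0.136, and differently numbered ones at -0.076 to 0.126. With 3 libraries per group these values cannot settle whether the libraries are paired. With the replicate block 0 HOX genes and 0 genes in all were called. HOXB4 had 0.43 in that fit, with an unadjusted p of 0.0603 by edgeR. Without the filter 22 HOX genes entered the edgeR test, 0 were called, and HOXB13 had an adjusted p of 0.995 by edgeR. HOXB13 passed the filter only without Control 3 or without IL-33 3, through Control libraries alone. No p is given for those fits. The 95% intervals of the 6 less abundant tested members all reach past a log2 fold change of 1 in size. The parts of depth and of spread between libraries in this were not tested.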

Other observations

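The homeobox genes DLX2, NKX2-1 and SHOX2 were named after their values were seen. DLX2 had 0, 0 and 5 counts in Control and 23, 29 and 14 counts with IL-33. All IL-33 libraries lay above all Control libraries, as in 4.54% of all genes tested. It passed the low-count filter through the IL-33 libraries alone, and its Control libraries lie near the detection limit, so no fold or unadjusted p is given, and its Benjamini-Hochberg adjusted p in edgeR was 0.999. DLX1, which stands next to it in the genome, had a log2 fold change of -0.27 ± 0.35 (SE). NKX2-1 had 0.38 ± 0.18 with overlapping groups and an unadjusted p of 0.0458 by edgeR, where 2.43% of all genes tested had a p under 0.05. SHOX2 had 0.45 ± 0.24, with IL-33 libraries at 14.4 to 18.9 CPM above Control libraries at 11.3 to 13.6 CPM, again as in 4.54% of all genes. After adjustment over all genes in edgeR both were at 0.999.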
